A study of Homo sapiens with 6 samples.

Results

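The regions described here are the unusually broad CTCF sites of HCT-116 cells. They were selected on measured peak width alone, as every called peak of 2500 bp or more on chromosomes 1 to 22 in at least 1 of 3 peak lists, with overlapping wide peaks merged into 1 region. The rule found 2336 wide peaks, which formed 1631 broad regions among 58351 merged regions of any width. The count therefore covers 2.8% of all merged regions, a share fixed by the width minimum itself.

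HCT-116 is a human colon cancer cell line. CTCF was immunoprecipitated from formaldehyde-fixed, sonicated chromatin of clone D3, clone E4 and WT cells, all untreated. Both clones carry a CTCF mutation whose position the labels do not give. Whether it lies in the CTCF gene or in a DNA site that CTCF binds is therefore not known here. Each population has 1 CTCF library, each mutant population is 1 clone, and 3 libraries without antibody are not analysed here. With 1 library per population, every difference between lists below compares those libraries, has no replicate check and carries no p-value. The lists hold no expression values, so the cell type could not be checked against marker genes.

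CTCF is a zinc finger protein that binds a long, mostly invariant DNA motif and stops cohesin as it extrudes chromatin loops, which places it at many domain borders and insulators. A single bound motif gives a narrow ChIP-seq peak, so a peak of several kilobases covers more DNA than the footprint of 1 motif. In a broadPeak list of MACS2, a peak caller, neighbouring enriched stretches are linked into 1 entry, and the fold enrichment and −log10 q of an entry are averages over its positions. Both are the authors' values and are used here only to describe and rank peaks within their own list.

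The promoters below show DNA at the starts of genes that lie in broad regions, chosen for different behaviours described further on. PDE4A was wide in all 3 lists, MIF4GD was wide in all 3 and ranked high by q, DUSP1 was wide in WT alone, CRIP1 was split by 2 lists, and RP9 ranked far lower by fold than by q in E4. The sequences are those of RefSeq on GRCh38.p14, on the gene's own strand, from 250 bases before to 50 bases after the gene start. Capitals mark matches of AGNNGGCGC, a part of the CTCF motif, searched on both strands.
PDE4A: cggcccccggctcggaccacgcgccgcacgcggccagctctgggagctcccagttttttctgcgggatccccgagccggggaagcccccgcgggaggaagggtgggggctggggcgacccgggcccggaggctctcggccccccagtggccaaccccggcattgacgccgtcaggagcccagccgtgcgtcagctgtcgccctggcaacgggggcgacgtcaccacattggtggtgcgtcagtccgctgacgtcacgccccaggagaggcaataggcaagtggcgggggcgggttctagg
MIF4GD: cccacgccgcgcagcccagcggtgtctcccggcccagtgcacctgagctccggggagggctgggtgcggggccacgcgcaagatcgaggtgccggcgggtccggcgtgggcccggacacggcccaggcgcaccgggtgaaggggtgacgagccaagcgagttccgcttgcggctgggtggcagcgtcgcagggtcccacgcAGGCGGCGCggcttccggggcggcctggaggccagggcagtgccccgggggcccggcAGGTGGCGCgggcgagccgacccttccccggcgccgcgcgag
DUSP1: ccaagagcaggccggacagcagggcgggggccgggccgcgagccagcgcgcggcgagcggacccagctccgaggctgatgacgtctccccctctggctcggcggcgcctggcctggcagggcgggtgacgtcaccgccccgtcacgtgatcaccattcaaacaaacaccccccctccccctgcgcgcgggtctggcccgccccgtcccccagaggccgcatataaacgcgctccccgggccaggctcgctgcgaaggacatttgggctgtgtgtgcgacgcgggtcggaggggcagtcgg
CRIP1: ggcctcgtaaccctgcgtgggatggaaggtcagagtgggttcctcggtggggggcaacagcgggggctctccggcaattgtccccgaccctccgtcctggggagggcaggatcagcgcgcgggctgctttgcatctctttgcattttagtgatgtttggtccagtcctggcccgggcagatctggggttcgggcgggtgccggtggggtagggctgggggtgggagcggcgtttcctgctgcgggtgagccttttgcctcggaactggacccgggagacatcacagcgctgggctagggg
RP9: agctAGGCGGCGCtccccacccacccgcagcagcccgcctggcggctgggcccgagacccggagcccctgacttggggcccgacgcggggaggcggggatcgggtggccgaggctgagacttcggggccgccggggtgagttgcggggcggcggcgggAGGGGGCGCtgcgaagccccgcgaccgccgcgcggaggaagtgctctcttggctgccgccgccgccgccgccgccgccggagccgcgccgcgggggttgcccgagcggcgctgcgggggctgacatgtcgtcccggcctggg

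Of 16 genes whose start lay in a region named here, 10 had a promoter in the RefSeq table at that start. The motif matched 2 of these 10 and 10.4% of all 35116 promoters. MIF4GD held it from bases 202 and 259, and RP9 from bases 5 and 159. The 10 promoters held a median of 34.5 CpG dinucleotides per 300 bases, and all promoters a median of 14. A match is only a run of letters, and a window without one says nothing about binding.

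The D3 list held most of the wide peaks. It had 1437 peaks of 2500 bp or more, 2.56% of its 56103 peaks on these chromosomes, against 547 in E4, 1.43% of 38209, and 352 in WT, 0.933% of 37735. These counts are the rule itself and are given as a description. Wide peaks held 8.46% of the base pairs covered by D3 peaks, 5.23% of those in E4 and 3.84% of those in WT. The median width of all peaks was 882 bp in D3, 757 bp in E4 and 645 bp in WT, so the whole D3 list was wider and not only its tail.

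The widest peak measured 7981 bp in D3, 5775 bp in E4 and 5412 bp in WT. D3 had 168 peaks of 4000 bp or more, E4 had 42 and WT had 21, and the numbers of 5000 bp or more were 41, 5 and 1. Among wide peaks alone the medians were close, at 2980 bp in D3, 2890 bp in E4 and 2893.5 bp in WT. No step in the width distribution sets the class apart: just inside the minimum lay peaks of 2500 bp in D3, 2501 bp in E4 and 2502 bp in WT, and just outside it peaks of 2499 bp in D3, 2499 bp in E4 and 2498 bp in WT. The next band below, from 2000 bp up to the minimum, held 1477 D3 peaks, 729 E4 peaks and 557 WT peaks.

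**Figure D1:**
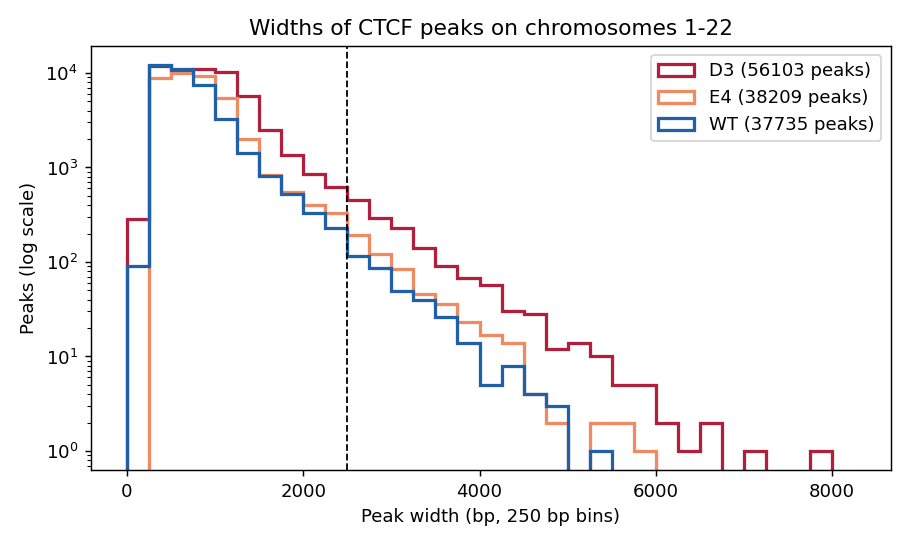
Number of peaks on chromosomes 1 to 22 (log scale) by peak width in bins of 250 bp, for D3, E4 and WT, with 1 library each; the dashed line marks the minimum of 2500 bp. The D3 curve lies above the E4 and WT curves at the dashed line and reaches 7981 bp, and no curve has a step there.

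Most broad regions were wide in a single list. Of the 1631, 906 were wide in D3 alone, 106 in E4 alone and 78 in WT alone, which makes 66.8% together. Another 267 were wide in D3 and E4, 100 in D3 and WT, and 10 in E4 and WT. The remaining 164 regions, 10.1%, were wide in all 3 lists. D3 held the widest peak in 1312 regions (80.4%), E4 in 189 and WT in 130. Over all 31692 regions called in the 3 lists, whatever their width, the same shares were 78.4% for D3, 13.9% for E4 and 7.69% for WT, so the order among broad regions was that of the lists as a whole.

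A region that was broad in 1 list was nearly always a peak in the others. All 3 lists had a peak in 1606 broad regions, 98.5% (exact Clopper-Pearson 95% interval 97.75 to 99.01, counting error only), against 54.3% of all merged regions. Narrower peaks of high rank were shared about as often. These were the D3 peaks under 2500 bp at or above the median −log10 q of wide peaks. Of them, 99.4% had an E4 peak and 99.9% a WT peak. Of all wide D3 peaks, which also include lower ranks, 98.7% had an E4 peak and 99.2% a WT peak. No broad region lacked a D3 peak, 19 lacked an E4 peak and 11 lacked a WT peak, with 5 lacking both. The peaks did not cover the regions alike, since peaks of each list covered 50% or more of the region in only 46.3% of cases.

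The 5 widest broad regions with a list lacking any peak were all wide in D3 alone. The widest, chr19:50416713-50420717, overlaps NUP62, a nuclear pore gene, and measured 4005 bp in D3, had no peak in E4 and measured 313 bp in WT. At chr22:18766210-18769979 a D3 peak of 3770 bp stood with no E4 and no WT peak, and its fold was 3.82 and its −log10 q 2.79. At chr6:139694671-139698162 the D3 peak over CITED2, a transcriptional coactivator gene, measured 3492 bp, and E4 had 1365 bp and WT none. Its −log10 q in D3 was 1.96, so it was a long and weak call. The other 2 regions, chr13:29391063-29394713 and chr9:116855289-116858852, measured 3651 and 3564 bp in D3, had no peak in E4, and measured 506 and 296 bp in WT.

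The ratio of the widest D3 peak to the widest WT peak of a region had a median of 1.98 over 1620 broad regions. It was 1.5 or more in 957 of them, 59.1%, against 56.8% of all regions called in the 3 lists, and the share among broad regions was thus near the background. The median ratio of E4 to WT was 1.11 over 1606 broad regions, and 470 (29.3%) reached 1.5, against a background of 25.8%. WT was the wider by the same ratio in 54 broad regions against D3 (3.33%, background 1.71%) and in 190 against E4 (11.8%, background 8.84%). Over all shared regions the median ratios were 1.60 for D3 and 1.17 for E4. In the regions wide in WT the medians were 1.04 for D3 (n = 352) and 0.875 for E4 (n = 351). Since the rule chose regions by these same widths, the ratios describe the lists and support nothing further.

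Widths in E4 and WT were spread on both sides of the minimum. Of the 1606 broad regions called in all lists, 591 had a widest E4 peak under 1500 bp, 135 one of 1500 to below 2000 bp, 333 one of 2000 to below 2500 bp and 547 one of 2500 bp or more. In WT the same bands held 810, 176, 269 and 351 regions. In the plot of widths these regions form a cloud near the diagonal and another in which the clone is wide and WT holds a peak near 1000 bp.

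**Figure D2:**
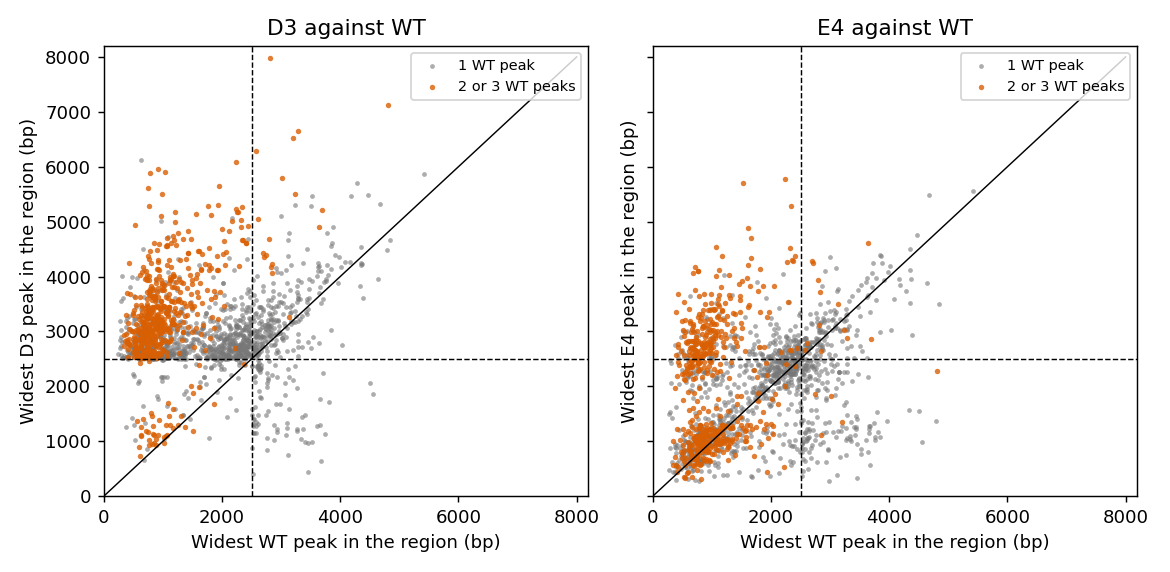
Width of the widest D3 peak (left) and the widest E4 peak (right) in each broad region against the widest WT peak (bp), with 1 library per axis; dashed lines mark 2500 bp, the solid line is equality, and orange points hold 2 or 3 WT peaks. Orange points gather where the clone is wide and the widest WT peak is narrow, and the region with the widest D3 peak, 7981 bp, stands at 2809 bp in WT.

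Both clones had a widest peak at least 1.5 times that of WT in 418 broad regions, 26.0% of those called in all lists, against 22.9% of all shared regions. Both were narrower than WT by the same ratio in 44, 2.74% against a background of 1.36%. Of these 44, 11 lay on chromosome 17, which held 147 of the 1631 broad regions and 55 of the 352 wide WT peaks. All 44 were wide in WT, so the wide WT peaks are the closer base. The widest of the 44, named after its values were seen, was chr1:27717932-27722479. Its widest peak measured 1866 bp in D3, 988 bp in E4 and 4548 bp in WT. D3 and E4 each had 2 peaks there. D3 was wider and E4 narrower than WT by that ratio in 56 regions, and the reverse held in 1. For these opposed patterns the joint shares over all shared regions were not counted, so the counts of 56 and 1 only describe the lists. Taken singly over all shared regions, D3 was wider than WT by that ratio in 56.8% and narrower in 1.71%. E4 was wider in 25.8% and narrower in 8.84%.

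A broad region was often several peaks in another list. In 647 of the 1631 regions (39.7%, exact interval 37.3 to 42.1) at least 1 list had 2 or more peaks, against 1.3% of all merged regions. The share was 23.2% when peaks below a −log10 q of 5 were left out, and 22.4% with a width minimum of 2000 bp. The comparison with the background follows partly from size, because peaks of 1 list were never closer than 981 bp in D3, 1096 bp in E4 and 993 bp in WT, so a short region cannot hold 2 of them. In 12 regions some list had 3 or more peaks, and 209 regions had 2 or more in both E4 and WT. Every list had exactly 1 peak in 965 regions, 59.2%.

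WT split the wide peaks of the clones most often. Of the 1437 wide D3 peaks, 286 (19.9%) held 2 or more E4 peaks, against 0.544% of all D3 peaks, and 483 (33.6%) held 2 or more WT peaks, against 0.955%. Of the 547 wide E4 peaks, 64 (11.7%, background 0.251%) held 2 D3 peaks and 213 (38.9%, background 0.814%) held 2 or more WT peaks. Of the 352 wide WT peaks, 28 (7.95%, background 0.103%) held 2 D3 peaks and 56 (15.9%, background 0.17%) held 2 E4 peaks. Peaks from 2000 bp up to the minimum were split less often in every pair of lists. Of those in D3, 1.08% held 2 E4 peaks and 3.11% held 2 WT peaks. Of those in E4, 3.16% held 2 D3 peaks and 10.4% held 2 WT peaks. Of those in WT, 1.08% held 2 D3 peaks and 0.898% held 2 E4 peaks. Among the 267 regions wide in both clones but not in WT, WT had 2 or more peaks in 166, 62.2%, and among the 164 wide in all lists it did in 13.

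**Figure D3:**
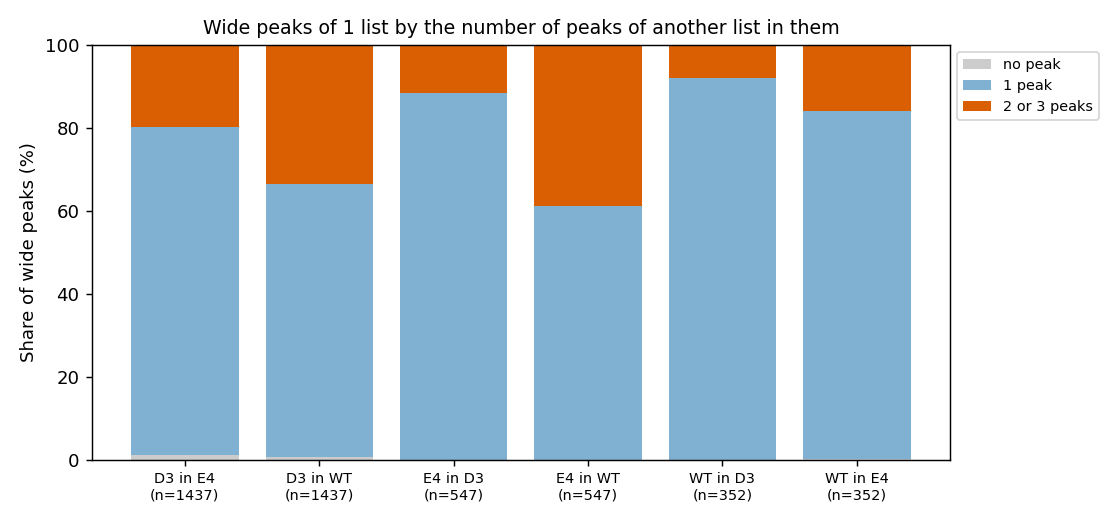
Share of the wide peaks of 1 list (%) that held no peak, 1 peak, or 2 or 3 peaks of another list; each bar names the list of the wide peaks first, then the list searched, and n is the number of wide peaks. The share with 2 or 3 peaks is 33.6% for D3 peaks in WT and 38.9% for E4 peaks in WT, and 7.95% for WT peaks in D3.

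The stretch between the pieces was short. Its median was 1375 bp for E4 pieces and 1282 bp for WT pieces in D3 peaks, 1115 bp for D3 pieces and 1231 bp for WT pieces in E4 peaks, and 1237.5 bp for D3 pieces and 1321 bp for E4 pieces in WT peaks. All of these lie little above the closest spacing seen in each list. Both pieces had to overlap the same wide peak, so a short stretch between them follows largely from the selection. Within whole lists no such selection applied. Neighbouring peaks within 1500 bp were rare there, at 2.26% of neighbouring pairs in D3, 1.28% in E4 and 1.9% in WT. The median spacing was 23.9 kb in D3, 33.4 kb in E4 and 32.9 kb in WT.

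Other wide peaks met a single, much shorter peak. For 337 wide D3 peaks the only WT peak covered under 50% of the D3 width, with a median of 1958 bp left uncovered, and for 312 the same held of the only E4 peak, with a median of 1911.5 bp left uncovered. The extra width lay mostly on 1 side: in 219 of the 337, 65.0%, at least 80% of the uncovered stretch lay to 1 side of the WT peak. In 55 wide E4 peaks with such a WT peak, 43 were as lopsided.

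The widest broad region, chr17:45918096-45926149, covers the start of SCRN2 and overlaps SP6, a gene of the Sp transcription factor family. D3 had 1 peak of 7981 bp there, E4 had 2 peaks of 3111 and 1248 bp, and WT had 3 peaks of 2809, 296 and 1023 bp. The fold was 13.9 in the D3 peak. It was 14.6 and 6.84 in the E4 peaks, and 10.7, 3.46 and 7.72 in the WT peaks in the same order. The middle WT peak was weak, at a −log10 q of 2.21 and the 13.9th percentile of its list, and no E4 peak lay there.

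At chr17:72855340-72862989, which covers the start of GRIN2C, an NMDA receptor subunit gene, and overlaps FDXR, a gene for ferredoxin reductase, D3 had 1 peak of 7123 bp. E4 had 3 peaks of 908, 997 and 2272 bp, and WT had 2 of 1227 and 4801 bp. The WT peak of 4801 bp was itself wide, so WT linked 2 of the 3 stretches that E4 kept apart. D3 exceeded WT here and E4 fell short of it.

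At chr19:1217623-1224267, within STK11, a tumour suppressor kinase gene, the widest peaks measured 6645 bp in D3, 2882 bp in E4 and 3287 bp in WT, and E4 and WT each had 2 peaks. At chr1:2684387-2690917, at TTC34, they measured 6531 bp in D3, 1345 bp in E4 and 3197 bp in WT, again with 2 peaks in E4 and in WT. At chr16:85449282-85455576, where no gene was assigned, they measured 6295 bp in D3, 2654 bp in E4 and 2580 bp in WT. The last had a −log10 q of 80.7 in D3.

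At chr15:79317308-79323433, in RASGRF1, a gene for a Ras exchange factor, D3 had a peak of 6126 bp, E4 one of 1083 bp and WT one of 624 bp. Each list had a single peak here, so the D3 width was not matched by further pieces in the others. The E4 peak covered 17.7% of the region and the WT peak 10.2%. By contrast, at chr9:136019392-136025290, over the start of RALGDS, a Ral exchange factor gene, the single D3 peak of 5899 bp met 3 E4 peaks of 1115, 944 and 513 bp and 3 WT peaks of 774, 1042 and 279 bp. The 3 pieces fell in the same order of fold in E4 (18.7, 10.3 and 5.82) and in WT (12.1, 8.59 and 4.30).

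At chr14:105951879-105957665, over the start of CRIP1, a gene for a small LIM domain protein whose promoter is printed above, D3 had 1 peak of 5787 bp. E4 had 3 peaks of 519, 349 and 1818 bp, and WT had 2 of 728 and 3021 bp. At chr7:139700731-139706610, in TBXAS1, the thromboxane synthase gene, the widest peaks measured 5880 bp in D3, 2305 bp in E4 and 783 bp in WT, with 2 peaks in E4 and 3 in WT. At chr15:76020259-76026220 they measured 5962 bp in D3, 2295 bp in E4 and 911 bp in WT, with 2 peaks in E4 and in WT.

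E4 was widest, or close in width to D3, at a smaller set of named regions. At chr12:57632318-57638027, over the start of NDUFA4L2 and in STAC3, a muscle excitation gene, E4 had 1 peak of 5710 bp, against 2 D3 peaks of 2712 and 2182 bp and 2 WT peaks of 1518 and 1525 bp. The first D3 peak had a −log10 q of 88.1 and lay at the 99.8th percentile of its list, so a very strong peak was not linked to its neighbour in D3. At chr20:43015061-43017809, in HNF4A, a transcription factor gene of gut and liver epithelium, E4 had 1 peak of 2749 bp, D3 had 2 of 892 and 1131 bp, and WT had 2 of 723 and 841 bp. At chr19:12884177-12890257, in HOOK2, a microtubule linker gene, D3 and E4 were both wide at 6081 and 5775 bp, and WT had 2 peaks, the wider of 2244 bp. At chr1:203307062-203312623, in FMOD, the fibromodulin gene, D3 and E4 were again alike at 5272 and 5277 bp, and WT had 2 peaks, the wider of 2332 bp.

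The clearest shared broad region was chr19:10526653-10532526, which covers the start of PDE4A, a cAMP phosphodiesterase gene. It measured 5874 bp in D3, 5564 bp in E4 and 5412 bp in WT, with 1 peak in each, and it was the widest WT peak. At chr1:31653425-31659171, in NKAIN1, the widths were 5316 bp in D3, 5483 bp in E4 and 4666 bp in WT. At chr17:73265990-73268801, over the start of MIF4GD, they were 2812 bp in D3, 2504 bp in E4 and 2540 bp in WT. At chr14:21558048-21561632, in ZNF219, they were 3585 bp in D3, 3327 bp in E4 and 3284 bp in WT, and at chr10:130007884-130011111 they were 3223 bp in D3, 3148 bp in E4 and 2823 bp in WT. In these 5 regions the peaks of each list covered 81.2% or more of the region.

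WT exceeded both clones at a few named regions. At chr17:77978650-77983441, in TBC1D16, a Rab GTPase-activating protein gene, the widest peaks measured 4485 bp in D3, 1367 bp in E4 and 4792 bp in WT, and E4 had 2 peaks. At chr3:53229435-53234393 they measured 4657 bp in D3, 3502 bp in E4 and 4845 bp in WT. At chr12:54424507-54427082, inside the HOXC cluster, they measured 1284 bp in D3, 1175 bp in E4 and 2576 bp in WT. At chr5:172197272-172199901, over the start of DUSP1, a MAP kinase phosphatase gene, the widths were close, at 2303 bp in D3, 2367 bp in E4 and 2630 bp in WT, and the minimum of 2500 bp fell between them.

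Wide peaks ranked high by significance within their lists. Their median percentile by −log10 q was 81.3 in D3, 79.4 in E4 and 82.0 in WT. At or above the 90th percentile lay 376 wide D3 peaks (26.2%), against 10.3% of all D3 peaks, 141 wide E4 peaks (25.8%), against 10.3%, and 89 wide WT peaks (25.3%), against 10.2%. Below the 50th percentile lay 107 wide D3 peaks, 52 wide E4 peaks and 41 wide WT peaks, and below the 10th 2, 1 and 1. Width and rank did not climb together throughout: the median percentile of D3 peaks was 16.1 under 500 bp, 75.5 at 1000 to below 1500 bp, 80.2 at 1500 to below 2000 bp, 77.2 at 2000 to below 2500 bp and 84.8 at 4000 bp or more. These values come from the lists that the rule used and are given as a description.

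By fold the same peaks ranked slightly lower. The median percentile by fold was 78.8 in D3, 77.3 in E4 and 78.9 in WT. The median of percentile by fold minus percentile by −log10 q was −0.932 points in D3, −0.479 in E4 and −1.09 in WT. The fold rank was the lower in 861 wide D3 peaks (59.9%), 308 wide E4 peaks (56.3%) and 251 wide WT peaks (71.3%). Narrower peaks were compared whose percentile by −log10 q lay between the lower and upper quartiles of the wide peaks. Among them the fold rank was the lower in 40.0% in D3, 37.3% in E4 and 39.8% in WT. The median differences were 1.24, 1.64 and 0.941 points. A gap of 10 points or more toward a lower fold rank occurred in 95 wide D3 peaks (6.61%, background 3.55%), 29 wide E4 peaks (5.30%, background 6.08%) and 5 wide WT peaks (1.42%, background 2.54%), so the share was above its background in D3 and below it in E4 and in WT. Among the narrower peaks of the same rank range the share was 5.74% in D3, 8.75% in E4 and 3.77% in WT. No wide peak stood 10 points or more higher by fold.

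**Figure D4:**
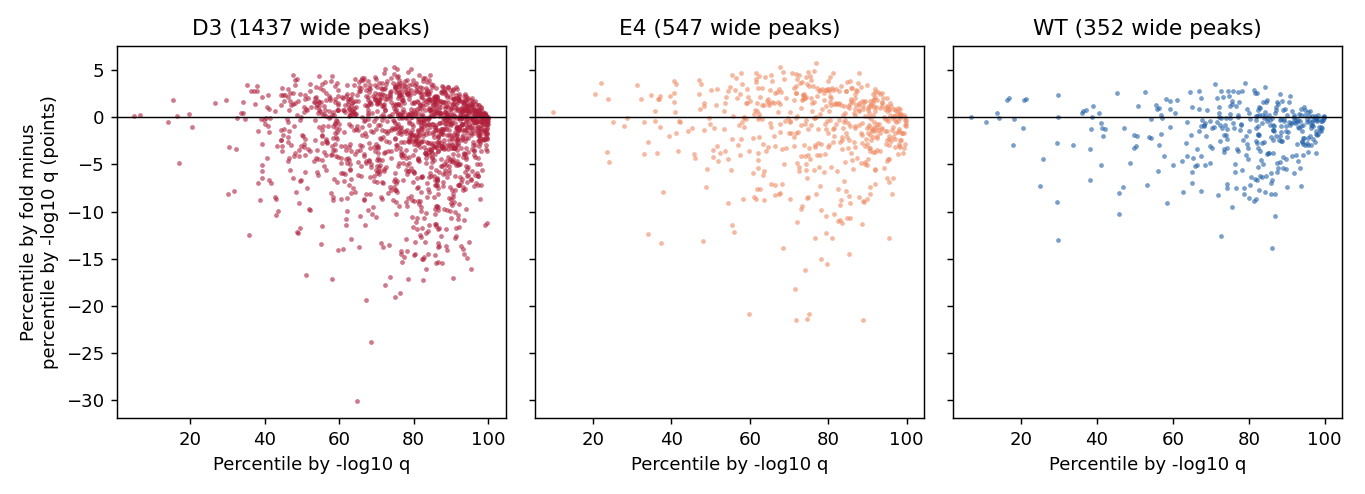
Percentile by fold minus percentile by −log10 q (points) against percentile by −log10 q for every wide peak, in D3, E4 and WT, with ranks taken within each list and 1 point per peak. The points reach 30.1 points below 0 in D3 but at most 5.76 points above it in any list, and the lowest WT point is 13.8 below.

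The 5 wide peaks with the largest gap toward a low fold rank lay in D3 and E4. At chr17:43661782-43664451 the D3 peak of 2670 bp was enriched 4.94-fold at a −log10 q of 13.4, which put it at the 34.7th percentile by fold and the 64.8th by q, a gap of −30.1 points. At chr16:88519653-88523061, over the start of ZFPM1, a GATA cofactor gene, the D3 peak of 3409 bp stood at −23.8 points. In E4 the peak at chr9:126800045-126804056 stood at −21.5 points, that at chr17:74677011-74680173, in MXRA7, at −21.5 points, and that at chr7:33146780-33149541, over the start of RP9, at −21.4 points. The opposite end was shorter: the E4 peak at chr16:71915550-71918129, over the start of ZNF821, a zinc finger gene, had a fold of 10.3 and stood 5.76 points higher by fold than by q. The next were the D3 peak at chr14:34791721-34794270 with 5.34 points, the E4 peak at chr2:177516034-177519175 with 5.34, the D3 peak at chr7:128099086-128101913 with 5.11 and the D3 peak at chr14:39885983-39888787, in FBXO33, an F-box protein gene, with 5.09.

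Broad regions were spread over every chromosome from 1 to 22 but unevenly. They made up 5.21% of all merged regions on chromosome 17, 4.36% on chromosome 19 and 4.27% on chromosome 22, and 1.20% on chromosome 13. Within 5 Mb of a chromosome end lay 225 of them (13.8%), against 9.98% of all merged regions, and within 5 Mb of a centromere gap 86 (5.27%), against 5.51%. Together 311 (19.1%, exact interval 17.2 to 21.1) lay near an end or a gap, against 15.5% of all merged regions. No peak of any list lay inside a centromere gap.

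Chromosome 17 held a larger part of the wide peaks than of all peaks in every list, most so in WT. It carried 8.42% of wide D3 peaks, 8.78% of wide E4 peaks and 15.6% of wide WT peaks, against 4.66%, 5.01% and 5.61% of all peaks of those lists. Chromosome 22 carried 3.06% of wide D3 peaks, 2.93% of wide E4 peaks and 3.69% of wide WT peaks, against 2.10%, 2.198% and 2.24% of all peaks. On chromosome 8 the lists differed in direction, with 4.66% of wide D3 peaks, 2.93% of wide E4 peaks and 7.39% of wide WT peaks, against 4.80%, 4.49% and 5.34% of all peaks. Of the 78 regions wide in WT alone, 16 lay on chromosome 17 and 9 on chromosome 8. On the long arm of chromosome 17, 5.13% of D3 peaks, 2.86% of E4 peaks and 3.06% of WT peaks were wide, and on that of chromosome 8 it was 2.73% in D3, 0.769% in E4 and 1.51% in WT. The WT share exceeded the E4 share in 5 of the 33 chromosome arms with 20 or more wide peaks over the lists, and fell below it or equalled it in the other 28.

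The share of all peaks that fell on the long arm of chromosome 17 was itself 3.51% in D3, 3.84% in E4 and 4.33% in WT. On that of chromosome 8 it was 3.33% in D3, 3.06% in E4 and 3.87% in WT. Its part in the count of wide peaks was not tested. Wide D3 peaks had a median of percentile by fold minus percentile by −log10 q of −3.38 points on the long arm of chromosome 17, −3.13 on that of chromosome 8, −2.92 on that of chromosome 16, −2.73 on that of chromosome 21 and −2.01 on that of chromosome 10, beside −0.932 points over all wide D3 peaks. For D3 peaks of any width the medians on those arms were −1.20, 0.219, −1.24, 0.983 and −0.235 points in the same order. The arms held 101, 51, 45, 13 and 68 wide D3 peaks. They are named because their medians for wide D3 peaks were the lowest among arms with more than 1 such peak. The short arms of chromosomes 11 and 1 came next, at −1.92 and −1.87 points. For wide WT peaks the medians on the long arms of chromosomes 17 and 8 were −0.998 and −1.28 points, beside −1.09 over all wide WT peaks. For WT peaks of any width they were 0.0569 and 0.644 points.

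**Figure D5:**
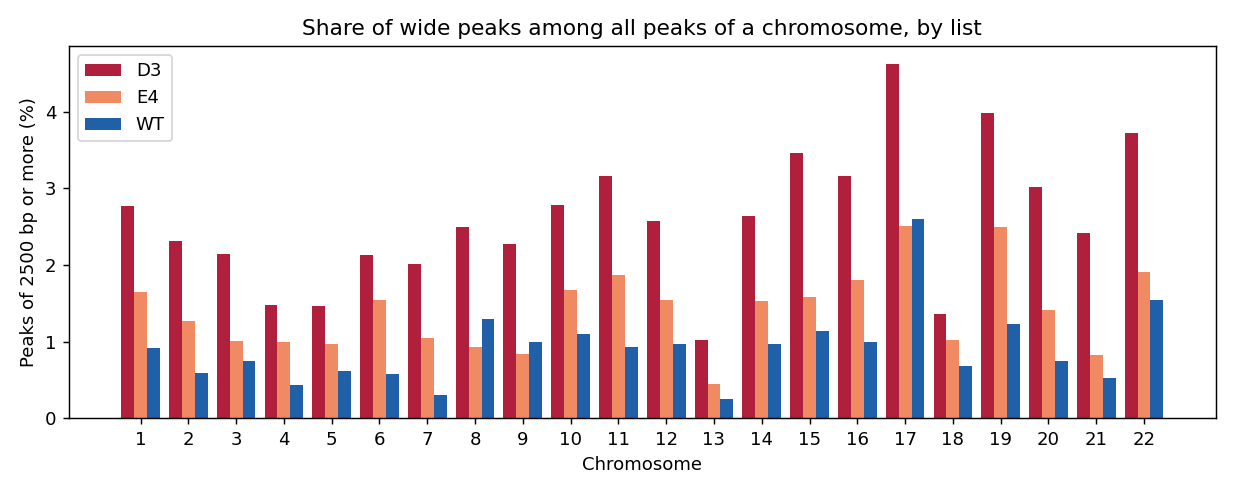
Share of the peaks of each chromosome (%) that were 2500 bp or more wide, for D3, E4 and WT, with 1 library each. D3 has the tallest bar on every chromosome, and WT exceeds E4 on chromosomes 8, 9 and 17.

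Broad regions lay where CTCF regions were dense. They had a mean of 4.03 other merged regions within 50 kb, against 3.06 for any merged region, and 4.11% had none, against 10.3%. The mean was 3.90 for regions wide in 1 list, 4.14 for 2 lists and 4.65 for 3 lists. Neighbouring broad regions stood within 50 kb of each other in 145 pairs and within 10 kb in 38. They formed 123 runs of 2 or more, 19 of 3 or more and 3 of 4. The runs of 4 were chr1:154970530-155060415, chr10:102756880-102828481 and chr5:176795560-176919542. In the run on chromosome 5 all 4 regions were wide in D3, 3 in E4 and 3 in WT. In the other 2 runs all 4 were wide in D3, 1 in E4 and 2 in WT.

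Gene lists of 7 kinds, 68 windows in all with 10 kb added on each side, were searched for broad regions. A broad region lay in 14 windows, and 15 of the 304 merged regions of any width in the windows were broad, 4.93%, against 2.8% of all merged regions. Wide D3 peaks lay in 11 windows, wide E4 peaks in 8 and wide WT peaks in 5. The order is that of the list totals, which were 1437, 547 and 352 wide peaks. The abundantly transcribed loci had one in 3 of 14 windows, which were 3 of 28 merged regions (10.7%). These were chr12:6646345-6649625 at GAPDH, a glycolytic enzyme gene, with 3281 bp in D3, 2597 bp in E4 and 426 bp in WT; chr6:30689085-30692052 at TUBB, a tubulin gene, with 2967 bp in D3, 2933 bp in E4 and 1752 bp in WT; and chr6:52859445-52862454 at RN7SK, the 7SK RNA gene, with 2951 bp in D3, 2906 bp in E4 and 2143 bp in WT. All 3 were wide in both clones and none in WT, a class that held 267 of the 1631 broad regions (16.4%).

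The immediate early genes, induced within minutes of a stimulus, had a broad region in 3 of 11 windows, which were 3 of 26 merged regions of any width (11.5%). DUSP1 is given above. At JUND, a member of the AP-1 transcription factor family, chr19:18387241-18390976 measured 3736 bp in D3, 2718 bp in E4 and 2470 bp in WT. The window of ZFP36, an mRNA decay factor gene, held chr19:39902048-39905872, which covers the start of its neighbour PLEKHG2, with 3825 bp in D3, 3130 bp in E4 and 2701 bp in WT.

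Of 12 WNT target windows, 1 held a broad region among 39 merged regions (2.56%), chr17:63550507-63553610 in AXIN2, a negative regulator of WNT signalling, with 3104 bp in D3, 1419 bp in E4 and 888 bp in WT. Of 7 CTCF and cohesin genes, 2 held one, which were 2 of 26 merged regions (7.69%). These shares rest on 1 to 5 broad regions a list. At STAG1, a cohesin subunit gene, chr3:136264399-136266983 measured 2585 bp in D3, 1333 bp in E4 and 1268 bp in WT, and at PDS5A, a cohesin regulator gene, chr4:39977605-39980239 measured 2635 bp in D3, 2235 bp in E4 and 2409 bp in WT. Of 9 colon epithelial genes, HNF4A alone held one, 1 of 24 merged regions (4.17%). None of the 8 colorectal cancer genes did, with 23 merged regions of any width in their windows.

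The gene clusters had broad regions in 4 of 7 windows, and 5 of the 138 merged regions of any width there were broad, 3.62%, near the 2.8% of all merged regions. Upstream of H19, in a stretch of the imprinting control region where CTCF binds the unmethylated maternal copy and insulates IGF2, chr11:2019391-2023773 measured 4364 bp in D3 and 4256 bp in E4, with 1 peak in each. WT had 2 peaks there, of 2704 and 366 bp. The fold was 7.04 in D3, 7.31 in E4, and 4.77 and 4.21 in WT, and the D3 peak stood at the 59.3rd percentile by q, below the median of wide peaks. Near IGF2, in the added 10 kb, chr11:2171143-2174315 measured 3173 bp in D3, 2527 bp in E4 and 2355 bp in WT. In the 10 kb beside the HOXD cluster, chr2:176950225-176953800 measured 3576 bp in D3, 2890 bp in E4 and 2571 bp in WT, and inside the histone cluster HIST1, chr6:26064407-26067117 measured 2711 bp in D3, 2255 bp in E4 and 1940 bp in WT.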

How the data were processed

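CTCF ChIP-seq peak lists of clone D3, clone E4 and WT HCT-116 cells were used as deposited, 1 list per library. Per the submitters' processing notes, MACS2 2.2.7.1, bedtools 2.29.2, Picard 2.23.1 and CASAVA 1.8.2 are named, with the build hg19. Which aligner and call settings were used, and whether the libraries without antibody served as control, is not given in the sources used here, and only deposited values were analysed. Of the columns that the authors deposited, those used were the coordinates, the fold enrichment over background and the −log10 of the q-value, and the deposited −log10 p-value and the score column were not used. Read depth is not in the lists and is unknown. It was not tested whether depth or call settings moved the widths.

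Coordinates are given 1-based. Lists were compared by overlaps of 1 bp or more, and percentiles were ranks within 1 list over all its peaks. Work was done in Python 3.11.15 with pandas 2.3.3, numpy 2.4.6, SciPy 1.17.1 and matplotlib 3.10.9, and merging, piece counting and ranking were checked on simulated lists with planted answers. Regions named are the 10 widest, the 5 widest of each list, the 5 wide in all lists with the highest mean percentile by q, the 5 with most pieces, the 5 largest fold and q rank gaps each way, the 5 widest lacking a peak in a list, and those in gene windows. Of these, 1 region on chromosome 8 is given in the counts only.

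No hg19 annotation was used. Gene positions, chromosome lengths and centromere gaps were written from general knowledge of hg19, so exons, introns and UTRs are not given. Of 113 gene names, 112 were found in the RefSeq table of GRCh38.p14, 112 on the same chromosome, and the gene order was the same on 16 of 16 chromosomes. Promoters come from the same RefSeq build, and HOOK2 was left out because the longest form of the gene may start elsewhere. The broad regions and the gene lists were chosen with earlier results of these data known.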

Additional observations from a re-analysis of the deposited data

Results flagged for a closer look

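At 3 of the 10 widest broad regions D3 was wider and E4 narrower than WT, each with 1 library per population, so the difference was not tested. At chr17:72855340-72862989 the widest peak of D3 exceeded that of E4 by 4851 bp. At chr19:1217623-1224267, in STK11, it did so by 3763 bp, and at chr1:2684387-2690917 by 5186 bp.

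Chromosome X was outside the rule. It held 14 peaks of 2500 bp or more in D3, against 3 in E4 and 1 in WT, which were 0.766%, 0.245% and 0.110% of the peaks on that chromosome. Chromosome Y held none in any list.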

How the results depend on the processing

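Of 74 alternatives over 17 results, 39 left the value within 1.5 times a count or within the 95% interval of a share or median. The other 35 moved it. A reversal of direction could be scored only for the medians of fold minus q percentile and of the width ratios, and 0 occurred. At a width minimum of 2000 bp there were 3289 broad regions, 549 of them wide in all 3 lists, with 2914 wide D3 peaks, 1276 wide E4 peaks and 909 wide WT peaks; at 3000 bp there were 800 regions, 60 wide in all 3 lists, and 696, 232 and 150 wide peaks. The widest 1% of each list gave 937 regions, 104 wide in all 3 lists. A peak in all lists was found in 96.5% at 2000 bp, in 85.8% once weaker peaks, below a −log10 q of 5, were dropped, and in 46.3% where peaks had to cover 50% of the region. The share split was 22.4% at 2000 bp, 56.9% at 3000 bp and 23.2% without those weaker peaks. The median percentile by q in D3 was 79.5 at 2000 bp, 83.0 at 3000 bp, 72.2 with lists of equal length (38645 peaks) and 71.8 when ranked without them; in E4 it was 76.2 at 2000 bp and 68.8 without them, and in WT 68.4 without them. The median of fold minus q percentile was −1.42 in D3 with equal lengths and −1.28 without the weaker peaks, −1.07 in E4 at 3000 bp, and −0.800 at 2000 bp and −1.88 without the weaker peaks in WT. Within 2 Mb of an end or gap lay 8.83%. Gene windows with a broad region numbered 25 at 2000 bp, 6 at 3000 bp and 25 with 50 kb added. The D3 to WT ratio was 1.73 with summed widths. No paired analysis was possible because each population has 1 library and the values come from no test, and for the same reason no replicate could be left out. Read depth is unknown, so what it limits could not be measured.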
